A study of Homo sapiens with 6 samples.

Results

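Interferon-stimulated genes are the antiviral and immune genes that cells switch on when interferon reaches them. A set of 45 such genes was described across 6 Affymetrix arrays of A375, an established cell line from a human melanoma that carries mutant BRAF. The members were chosen by name as commonly used markers of the interferon response, with earlier results of these arrays known, and 44 of the 45 were measured, out of 19676 genes in all. STAT2 was not analysed here. At 16 h there was 1 array of cells with 10 µM vemurafenib and 1 with the solvent DMSO. At 6 h there was 1 array each of cells with 10 µM vemurafenib plus 100 nM AT9283 (the combination), with 10 µM vemurafenib, with 100 nM AT9283 and with DMSO. All cells grew in RPMI medium with serum, and no interferon treatment is named. Vemurafenib blocks the mutant form of BRAF. AT9283 acts on Aurora kinases, on JAK2 and on further kinases. Each array holds RNA of many cells, so fewer cells expressing a gene and less RNA of it per cell cannot be told apart.

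Type I interferon binds a receptor whose kinases JAK1 and TYK2 lead to the assembly of a complex called ISGF3, which holds STAT2 and IRF9. ISGF3 binds a DNA element in the promoters of its targets, the interferon-stimulated response element. Interferon gamma acts through JAK1 and JAK2 instead, and its targets carry another element, the gamma-activated site. In many tumour cells a low level of these genes is present without added interferon.

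The core of the response element was taken as GAAA, any 2 bases and GAAA, which reads as TTTC, any 2 bases and TTTC on the other strand. Both strands were searched in the RefSeq promoter windows, which run from 250 bases before to 50 bases after each gene start in GRCh38.p14. Of the 36 members with a promoter in that table, 25 (69.4%) held the motif, against 4.38% of all 27305 genes with a promoter. The gamma-activated site TTCNNNGAA was held by 12 of the 36 (33.3%), against 9.38% of all genes. Where both motifs were searched, their matches were counted separately, whether or not they overlapped. The 250 bases before the start are shown for 4 members whose values carry the results below, 3 with the response element core and 1, IRF9, without it. Each sequence reads 5′ to 3′ on the strand of its gene, and capitals mark the core on either strand. The gamma-activated site is not marked, and IRF9 and DDX60 were among the 12 members that held it in the searched window.
IFIT1 (chr10:89392373-89392622, plus strand): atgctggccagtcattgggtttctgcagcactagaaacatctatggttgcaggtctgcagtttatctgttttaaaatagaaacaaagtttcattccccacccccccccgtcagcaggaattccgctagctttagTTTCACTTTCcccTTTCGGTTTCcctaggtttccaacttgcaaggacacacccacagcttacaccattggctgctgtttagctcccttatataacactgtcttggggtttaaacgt
GBP1 (chr1:89065209-89065458, minus strand): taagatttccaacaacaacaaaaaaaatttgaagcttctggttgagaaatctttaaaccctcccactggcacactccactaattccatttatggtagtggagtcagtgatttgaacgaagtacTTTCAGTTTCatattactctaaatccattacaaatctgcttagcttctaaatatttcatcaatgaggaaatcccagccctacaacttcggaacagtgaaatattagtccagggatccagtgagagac
DDX60 (chr4:168318753-168319002, minus strand): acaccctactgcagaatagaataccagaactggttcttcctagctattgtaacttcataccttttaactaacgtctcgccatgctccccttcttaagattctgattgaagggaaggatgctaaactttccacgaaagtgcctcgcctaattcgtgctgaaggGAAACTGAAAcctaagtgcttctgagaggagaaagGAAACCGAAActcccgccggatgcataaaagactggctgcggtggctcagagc
IRF9 (chr14:24161015-24161264, plus strand): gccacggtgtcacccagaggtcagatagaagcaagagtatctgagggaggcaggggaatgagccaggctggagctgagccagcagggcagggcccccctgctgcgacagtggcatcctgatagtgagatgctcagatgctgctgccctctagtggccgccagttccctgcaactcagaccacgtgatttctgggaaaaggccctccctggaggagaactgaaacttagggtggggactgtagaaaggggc
IFIT1 and DDX60 each held the core more than once, and GBP1 a single time, with its first base 127 bases before the gene start. The match in IFIT1 nearest to the start began 103 bases before it, and that in DDX60 53 bases before it. No match says only that these letters are not in this window. Set beside the vemurafenib differences at 16 h, the 25 measured members with the response element core had a median log2 difference of 0.46, and the 10 measured members without it one of 0.51.

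All levels here are log2 intensities of 1 probe set per gene, and all differences are on the same log2 scale. With 1 array per condition there is no replicate error, so no difference between 2 arrays has a test. Instead, a gene is said to have risen or fallen when it differed by at least 1 (2-fold) and reached log2 6 on its higher array. A second, looser rule asks for at least 0.5 (1.41-fold) with the same floor. Both are rules of size. Over 8885 genes with a mean at or above log2 6, the SD of the difference between the DMSO arrays at 16 h and 6 h was 0.23, which also holds the effect of time.

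The arrays had median intensities between 19.79 and 21.29, and between 44.7% and 46.1% of all genes lay at log2 6 or more. Of 12 markers of melanoma and neural crest measured, 7 or 8 reached the floor on each array. SOX10, MITF and MIA lay between log2 8.32 and 10.74, whereas the pigment genes PMEL, MLANA and TYR lay between 3.46 and 4.85 and S100A1 stayed under 6 as well. With vemurafenib at 16 h, 4 of the 8 at the floor were higher by 0.5 or more and 0 lower, beside 16% and 18% of all genes, and ERBB3, a receptor kinase of neural crest cells, rose by 1.08. At 6 h ERBB3 rose by 1.09 and MITF was higher by 0.61, whereas SOX10 had -0.82. The part of these markers in the results below was not tested. The summed intensity of the 12 measured was log2 12.06 with vemurafenib at 16 h, against 11.53 in DMSO. Immune cells can carry much of these transcripts, and of their 8 measured markers PTPRC lay between 2.86 and 3.13 and CD79A alone passed log2 6 (6.27 to 6.78). Only CD79A could thus pass a size rule, and with vemurafenib it differed by 0.16 at 16 h and by 0.15 at 6 h. The summed intensity of the 8 at 16 h was log2 7.73 with vemurafenib, against 7.63 in DMSO. The 3 endothelial markers stayed under the floor. Of the 3 epithelial markers EPCAM and CDH1 lay at 3.42 or below, and KRT8 had 8.63 with vemurafenib at 16 h, against 8.08 in DMSO, and a difference of -0.03 at 6 h. The part of KRT8 was not tested. On the 16 h pair 4493 probe sets (8.22%) carried exactly the same value in both columns, against 592 to 731 for any pair of 6 h arrays and 84 to 103 for a pair across the times. What produced these equal values was not tested. Among the probe sets used for the members, MX2 has such a value.

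Many members were expressed near or below the floor. Of the 44 measured members, 17 lay at log2 6 or more on all 6 arrays. A further 13 reached it on some arrays, and 14 stayed under it on every array. The 14 were IFIT2, IFI27, IFI44L, IFIH1, OAS1, OAS2, DHX58, XAF1, BST2, GBP2, TRIM21, TRIM22, EPSTI1 and RSAD2. LGALS3BP had the highest levels, up to 10.53, and RSAD2, which encodes the antiviral enzyme viperin, stayed between 2.63 and 2.91. At 16 h 29 members reached the floor with vemurafenib, against 19 in DMSO, beside 46.1% and 45.1% of all genes. At 6 h 22 reached it in the combination, 25 with vemurafenib and 20 with AT9283, against 21 in DMSO. On these 6 h arrays between 44.7% and 45.0% of all genes did.

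**Figure D1:**
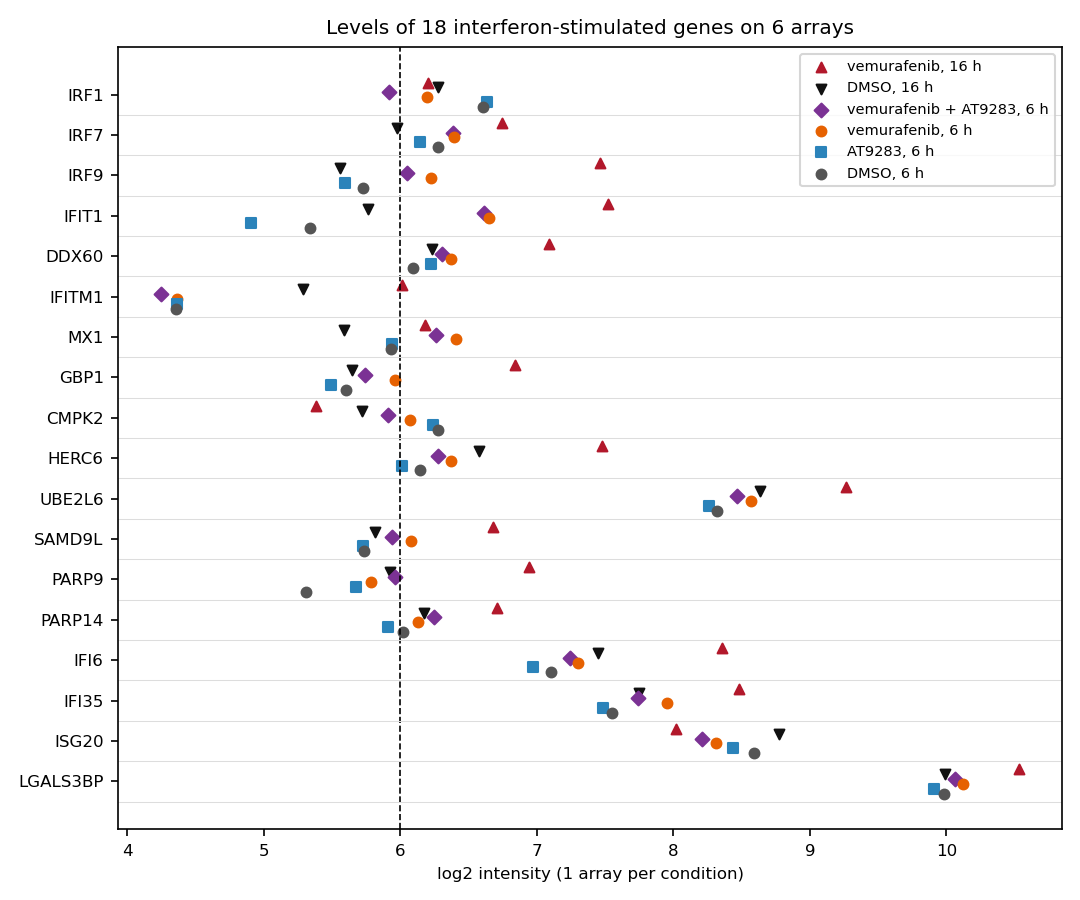
Log2 intensity (horizontal axis) of 18 interferon-stimulated genes on each of the 6 arrays, 1 symbol per array, with the floor of log2 6 as a dashed line. The array with vemurafenib at 16 h (upward triangles) is the highest of the 6 for 14 of these genes, and the lowest for ISG20 and CMPK2.

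Among the regulators, IRF9 had the largest difference of any member. IRF9 is the DNA-binding subunit of ISGF3. Its level was 7.46 with vemurafenib at 16 h, against 5.56 in DMSO, a rise of 1.90 (3.74-fold). At 6 h its levels were 6.05 in the combination, 6.22 with vemurafenib and 5.60 with AT9283, against 5.73 in DMSO. Only the arrays with vemurafenib passed the floor, and the difference at 6 h was 0.499, just short of the looser rule. IRF7, which amplifies the production of type I interferon, had 6.74 with vemurafenib at 16 h, against 5.98 in DMSO (a difference of 0.76). At 6 h IRF7 ranged between 6.14 and 6.39 over the 4 arrays. IRF1, a regulator that responds to interferon gamma and to several other signals, did not share this direction. Its levels were 6.20 with vemurafenib and 6.28 in DMSO at 16 h. At 6 h IRF1 had 5.92 in the combination, 6.20 with vemurafenib and 6.64 with AT9283, against 6.61 in DMSO. The 2 arrays without vemurafenib were thus the highest for IRF1 at 6 h, and the combination lay 0.69 below DMSO.

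IFIT1 was the one member to rise at both times. It encodes a protein that binds foreign 5′ ends of RNA and blocks their translation. Its level was 7.52 with vemurafenib at 16 h, against 5.77 in DMSO, a rise of 1.76 (3.38-fold). At 6 h it had 6.61 in the combination and 6.65 with vemurafenib, but 4.91 with AT9283, against 5.34 in DMSO. The arrays with vemurafenib all lay above log2 6 and those without it all lay below, and every array it is measured against lay under the floor. The rise at 6 h was 1.31 (2.48-fold) with vemurafenib alone. IFIT2, a relative of IFIT1, stayed under the floor on all arrays, with differences of 0.90 at 16 h and 0.59 at 6 h. IFIT3 and IFIT5, also of this family and above log2 6 throughout, differed by -0.10 and -0.19 at 16 h and by -0.18 and -0.34 at 6 h. The IFIT genes thus did not move as a block.

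Of the other RNA sensors, DDX60, a helicase linked to antiviral RNA sensing, had 7.09 with vemurafenib at 16 h, against 6.24 in DMSO (a difference of 0.85). Its 4 levels at 6 h ran from 6.09 in DMSO to 6.37 with vemurafenib. IFIH1, which encodes the sensor MDA5, differed by 1.17 at 16 h, and DHX58, which encodes its relative LGP2, by 0.93, both below the floor, IFIH1 with 5.88 on its higher array. The OAS enzymes make the messenger that activates RNase L. OAS3, the only one of them at log2 6 on all arrays, differed by -0.07 at 16 h. OAS1, OAS2 and the related OASL had differences of 0.38, 0.40 and 0.28, and of these OASL alone reached the floor, at 6.22 with vemurafenib. Of the 11 genes in this group 8 had a positive difference at 16 h, against 49.3% of all genes. Of the 6 at the floor IFIT1 and DDX60 were higher by the looser rule, against 16% of all genes. IFIT1 and OASL reached the floor at 16 h through the vemurafenib array alone, and this count favours such genes.

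Among the GTPases and membrane antivirals, GBP1 rose at 16 h. GBP1 is a GTPase that attacks membranes around intracellular pathogens and is a classic target of interferon gamma. It had 6.84 with vemurafenib at 16 h, against 5.64 in DMSO (a difference of 1.20, 2.29-fold). The 4 arrays at 6 h held 5.74 in the combination, 5.97 with vemurafenib and 5.49 with AT9283, against 5.61 in DMSO. MX1, a GTPase that traps viral nucleocapsids, had 6.18 with vemurafenib at 16 h, against 5.59 in DMSO (0.59). Its levels at 6 h were 6.26 in the combination, 6.41 with vemurafenib and 5.94 with AT9283, against 5.93 in DMSO. MX1 was thus above log2 6 on the 3 arrays with vemurafenib and below it on the others. MX2, a nuclear pore protein that restricts retroviruses, had 8.01 on both 16 h arrays. IFITM1, which hinders viral entry at membranes, had 6.01 with vemurafenib at 16 h, against 5.29 in DMSO. All 4 of its arrays at 6 h lay between 4.25 and 4.37, so here the DMSO arrays differed from each other (0.93) more than vemurafenib did from DMSO (0.72). CMPK2, a mitochondrial nucleotide kinase, had 5.39 with vemurafenib at 16 h, against 5.72 in DMSO (-0.34), both under the floor and short of the looser rule. At 6 h CMPK2 had 5.91 in the combination, 6.07 with vemurafenib and 6.24 with AT9283, against 6.28 in DMSO. BST2 (tetherin), GBP2 and RSAD2 stayed under the floor.

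ISG15 is a small protein that is linked to other proteins like ubiquitin, with UBE2L6 as its conjugating enzyme, HERC5 as its ligase in human cells and USP18 as the protease that removes it. HERC6, a relative of HERC5, was counted with this system here. All 5 genes so grouped had a positive difference at 16 h, against 49.3% of all genes, with a median of 0.47. HERC6 had 7.47 with vemurafenib at 16 h, against 6.57 in DMSO (0.90). At 6 h it had 6.27 in the combination, 6.37 with vemurafenib and 6.02 with AT9283, against 6.15 in DMSO. UBE2L6 had 9.27 with vemurafenib at 16 h, against 8.64 in DMSO (0.63). Its levels at 6 h were 8.46 in the combination, 8.57 with vemurafenib and 8.26 with AT9283, against 8.32 in DMSO. With the mean over its probe sets, of which the second lies near background, the HERC6 difference at 16 h was 0.50 (0.498, short of the looser rule). In HERC6 and UBE2L6 alike the 2 highest arrays were those at 16 h. ISG15 itself differed by 0.47 and HERC5 by 0.46 at 16 h, just short of the looser rule. USP18, which also restrains the interferon receptor, differed by 0.04 at 16 h and by -0.01 at 6 h.

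The PARP, TRIM and SAMD9 families gave 7 positive differences out of 7 at 16 h, against 49.3% of all genes. PARP9, which works with the ubiquitin ligase DTX3L, had 6.95 with vemurafenib at 16 h, against 5.93 in DMSO, a rise of 1.02 (2.03-fold). At 6 h PARP9 had 5.96 in the combination, 5.79 with vemurafenib and 5.67 with AT9283, against 5.31 in DMSO. A second PARP9 probe set carried the same value in both 16 h columns (5.84), so on it the difference was 0, and the rise rests on 1 of the 2. PARP14, an ADP-ribosyltransferase, had 6.71 with vemurafenib at 16 h, against 6.17 in DMSO (0.54). Its levels at 6 h were 6.25 in the combination, 6.13 with vemurafenib and 5.91 with AT9283, against 6.02 in DMSO. With the mean over its probe sets, of which the second lies near background, the PARP14 difference at 16 h was 0.27. SAMD9L, a brake on translation in infected cells, had 6.68 with vemurafenib at 16 h, against 5.82 in DMSO (0.87). At 6 h SAMD9L had 5.94 in the combination and 6.08 with vemurafenib, against 5.73 both with AT9283 and in DMSO. Its neighbour SAMD9 differed by 0.27 at 16 h, PARP12 by 0.10 and TRIM21, the antibody receptor of the cytosol, by 0.10. A second SAMD9 probe set carried the same value in both 16 h columns (6.36), so on it the difference was 0. TRIM22 differed by 1.04 with both arrays under the floor.

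The remaining members held values on either side of 0. IFI6, a mitochondrial and ER protein, had 8.36 with vemurafenib at 16 h, against 7.45 in DMSO (0.91). Its levels at 6 h were 7.25 in the combination, 7.31 with vemurafenib and 6.97 with AT9283, against 7.10 in DMSO. IFI35 had 8.48 with vemurafenib at 16 h, against 7.75 in DMSO (0.73). Across the 6 h arrays IFI35 had 7.74 in the combination, 7.95 with vemurafenib and 7.48 with AT9283, against 7.55 in DMSO. LGALS3BP, a secreted glycoprotein that binds galectins, had 10.53 with vemurafenib at 16 h, against 9.99 in DMSO (0.55). Its 4 levels at 6 h ran from 9.91 with AT9283 to 10.12 with vemurafenib. For IFI6, IFI35 and LGALS3BP the order of the 6 h arrays was the same, with vemurafenib highest and AT9283 lowest. ISG20, a 3′ exonuclease that degrades viral RNA, went the other way, with 8.02 with vemurafenib at 16 h, against 8.77 in DMSO (-0.75). At 6 h ISG20 had 8.21 in the combination, 8.31 with vemurafenib and 8.44 with AT9283, against 8.59 in DMSO. The arrays with vemurafenib were the 3 lowest for ISG20, and its second probe set had -0.82 at 16 h. IFI44 differed by -0.47, whereas its relative IFI44L differed by 1.53 at levels under log2 6. SP110 differed by -0.05 at both times.

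**Figure D2:**
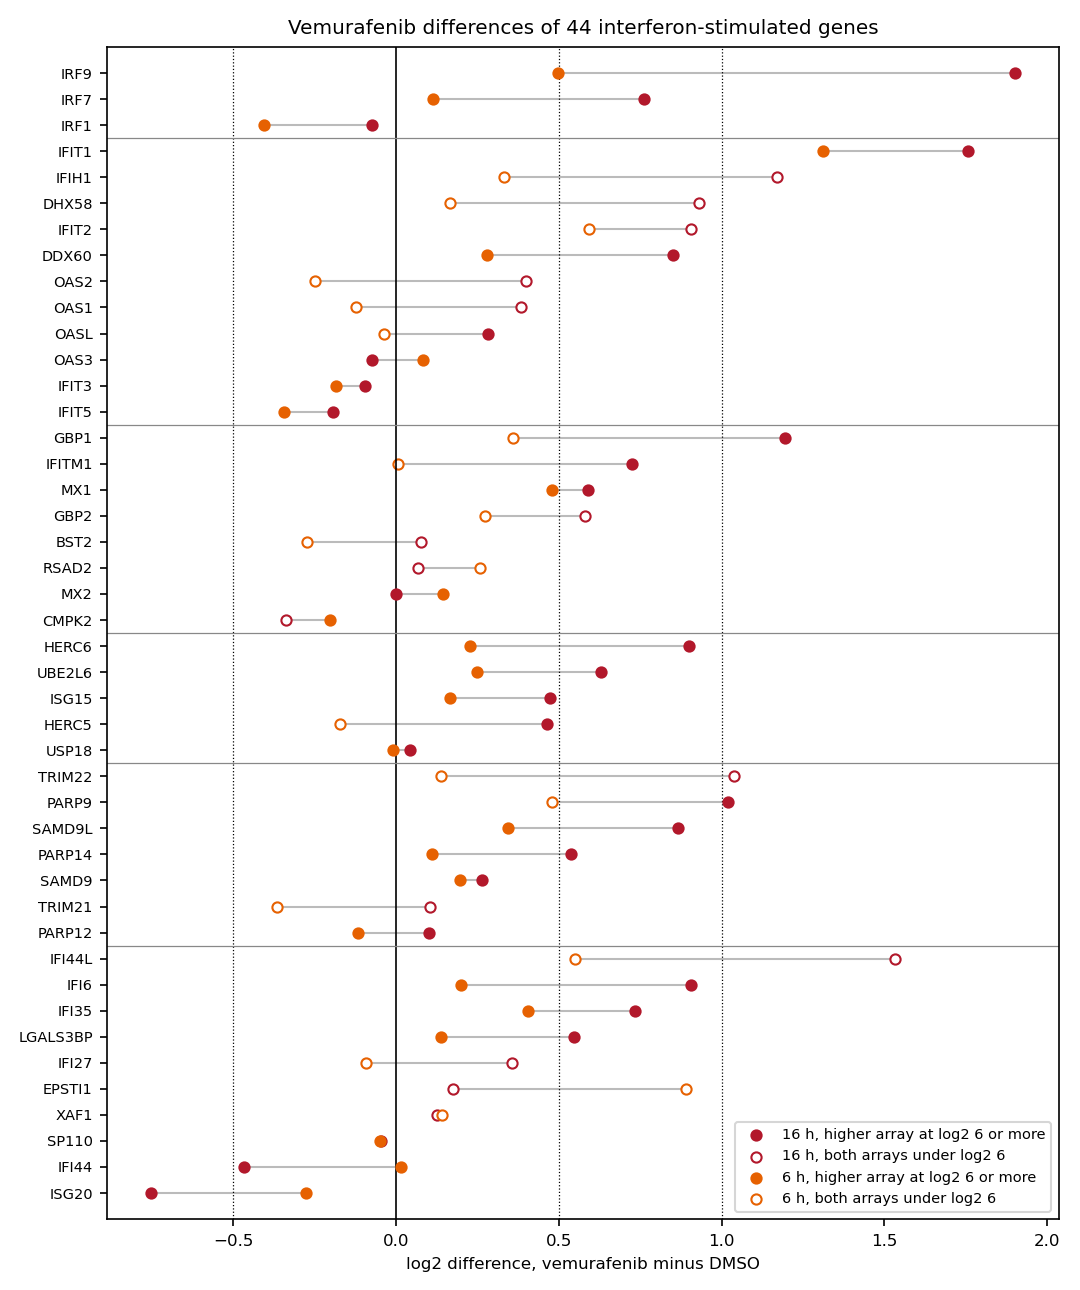
Log2 difference of vemurafenib minus DMSO (horizontal axis) for the 44 members measured, at 16 h (dark red) and 6 h (orange), grouped from top to bottom as regulators, RNA sensors, GTPases and membrane antivirals, the ISG15 system, PARP, TRIM and SAMD9 families, and the rest. Filled circles had the higher array at log2 6 or more, and dotted lines mark the size rules. Of the 44 genes 36 lie further right at 16 h than at 6 h. Of all genes 50.03% had a higher difference at 16 h than at 6 h.

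Over all members, the difference at 16 h of vemurafenib was positive for 35 of 44, negative for 8 and 0 for MX2. The median of the 44 was 0.47 (quartiles 0.07 and 0.87), against 0.00 over all genes, of which 49.3% had a positive difference. IFIT1, IRF9, PARP9 and GBP1 rose, 4 of the 29 members at the floor, and none fell, against 5.19% of all genes rising and 5.79% falling. By the looser rule 15 of the 29 were higher and 1, ISG20, was lower, against 16% and 18% of all genes. These counts favour genes that reach the floor through the vemurafenib array alone, as IFIT1, IRF9, PARP9 and GBP1 did, so they were repeated over genes at log2 6 or more in the mean of the 6 h DMSO and AT9283 arrays, which this difference does not use. Of the 20 members so selected none rose or fell, against 2.57% and 6.14% of 8801 genes. By the looser rule 7 were higher (IFI6, IFI35, IRF7, DDX60, HERC6, LGALS3BP and UBE2L6) and ISG20 was lower, against 11.5% and 19.4% of these genes. Their median was 0.07, against -0.04 for the 8801 genes, and 11 of 20 were positive, against 44.7%. The shift of 0.47 over all 44 members was thus not seen in the median of the members that lie above the floor without vemurafenib.

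At 6 h the differences were smaller. The median of the 44 members was 0.14, against 0.02 over all genes, and 29 of 44 were positive, against 54.3% of all genes. IFIT1 was the 1 of 25 members at the floor to rise, against 1.03% of all genes, and by the looser rule it was again the only one, against 4.56%. None fell or was lower by 0.5, against 2.14% and 6.82% of all genes. The difference at 16 h was above that at 6 h for 36 of 44 members, against 50.03% of all genes. The median gap was 0.36, against 0.00 over all genes. Among the 20 members selected on the 6 h arrays without vemurafenib, it was above for 15, with a median gap of 0.18. Of the 8801 genes so selected 44.6% were above, with a median gap of -0.04. This selection uses the DMSO array at 6 h, which the difference at 6 h uses too. Both differences were positive in 26 of 44 members (59.1%), against 34.2% of all genes. These 2 differences share no array.

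**Figure D3:**
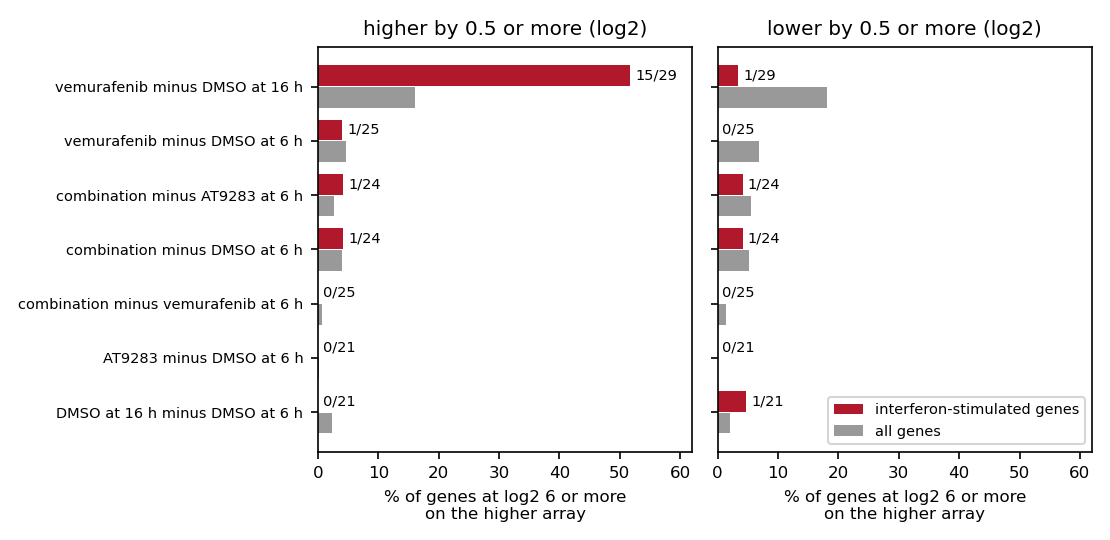
Share of interferon-stimulated genes (red) and of all genes (grey) that were higher (left) or lower (right) by 0.5 or more on the log2 scale in each comparison, as a percentage of genes whose higher array lay at log2 6 or more. Labels give the number over the rule and, after the slash, the number at the floor, and vemurafenib at 16 h has 15 of 29 higher, against 16% of all genes, counts that favour genes reaching the floor through the vemurafenib array.

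For vemurafenib over both times, limma was fitted on the 4 arrays of vemurafenib and DMSO at both times and time as a block. It has 1 residual degree of freedom, so what it takes as error is how far the effect of vemurafenib differed between 6 h and 16 h, with no replicate in it. At a Benjamini-Hochberg adjusted p under 0.05 it called 0 of the 30 members tested, against 0.332% of all genes called higher and 0.839% lower. IFIT1 came closest, at 1.53 (SE 0.19, limma adjusted p 0.0536), and was higher at both times. IRF9, with 1.20 (SE 0.37), had a limma adjusted p of 0.189, since its difference was much larger at 16 h than at 6 h. At an unadjusted p under 0.05, 10 members were higher and 1 was lower, against 10.6% and 11.6% of all genes. The 10 were IFIT1, IFI35, PARP9, IRF9, GBP1, MX1, DDX60, SAMD9L, IFI6 and HERC6, and the 1 was ISG20. Of the 10, IFIT1, IRF9, PARP9, GBP1, MX1 and SAMD9L lay under log2 6 on both DMSO arrays. The fit took genes with any of the 4 arrays at log2 6, so these entered it through the vemurafenib arrays alone. The count favours such genes. A second limma fit took all 6 arrays with time, vemurafenib and AT9283 as additive terms and 2 residual degrees of freedom, whose error is again the departure from additive effects. For vemurafenib it called 1 of 30 members higher, IFIT1 at 1.59 (SE 0.13, limma adjusted p 0.0145), and 0 lower, against 1.44% and 3.33% of all genes. At an unadjusted p under 0.05 its vemurafenib term had 11 members higher and 3 lower, against 16.5% and 14.8% of all genes. The 3 were IFIT5, ISG20 and CMPK2, and GBP1 and DDX60 were not among the 11. Of the 11, IFIT1, IRF9, MX1, SAMD9L and PARP9 reached log2 6 only on arrays with vemurafenib. For AT9283 the second fit called 0 of 30 in either direction, as it did for 0% of all genes. At an unadjusted p under 0.05 that term had 0 members higher and SAMD9 lower, against 1.68% and 0.639% of all genes. The fits share 4 arrays, and the call of IFIT1 depends on which is used.

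Between the DMSO arrays, 16 h against 6 h, the median of the 44 members was 0.11, against -0.01 over all genes, and 30 of 44 were positive, against 48.3%. None of the 21 members at the floor rose or fell, against 0.188% and 0.0883% of all genes. By the looser rule 0 were higher and CMPK2 was lower, by 0.55, against 2.3% and 2.05% of all genes. The larger positive values lay below the floor, OAS2 at 0.98, TRIM22 at 0.97, IFITM1 at 0.93, GBP2 at 0.91, XAF1 at 0.75 and PARP9 at 0.62. Whether time or array processing underlies this cannot be told apart.

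AT9283 alone moved no member over either rule. None of 21 members at the floor rose or fell, against 0.0224% and 0% of all genes. Of 21 members at the floor 0 were higher and 0 were lower by 0.5, against 0.224% and 0.0783% of all genes. The median of the 44 was -0.06, against -0.01 over all genes, and 16 of 44 were positive, against 47.3% of all genes. Among the 23 members with a mean at log2 6 or more 15 were negative, with a median of -0.06, against 0.01 for the 8885 genes, of which 55.8% were positive. IFIT1 had a difference of -0.43 and IFIT2 of -0.59, both with both arrays under log2 6, and IFI44L, also under it, one of 0.66. JAK2, one of the targets of AT9283, lay near the floor, between 5.59 and 6.08 over the 6 arrays.

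In the combination, IFIT1 kept its high level. Relative to DMSO it rose by 1.27 (2.41-fold), the 1 of 24 members at the floor to rise, against 0.639% of all genes, and none fell, against 1.93%. By the looser rule IFIT1 was again the only member higher, against 3.92% of all genes, and IRF1 the only one lower, against 5.17%. This comparison shares its DMSO array with those of vemurafenib and of AT9283 at 6 h. Set against vemurafenib alone, no member of 25 at the floor rose or fell, against 0% and 0.322% of all genes, and none was higher or lower by 0.5, against 0.645% and 1.46% of all genes. The differences of the 44 ran from -0.38 for IFIT2 to 0.38 for OAS2, and 29 were negative, with a median of -0.06, against -0.00 over all genes. Of the 23 members with a mean at log2 6 or more 18 were lower in the combination, with a median of -0.06. The 8885 genes had a median of 0.03, and 57.9% of them were higher. All 8 GTPases and membrane antivirals were lower in the combination than with vemurafenib, with a median of -0.15, where 48.6% of all genes were positive. Only 3 of these 8 reached the floor. The groups differed, with 5 of 7 higher in the PARP, TRIM and SAMD9 families (median 0.12) and 6 of 11 among the RNA sensors. In the ISG15 system 2 of 5 were higher, among the regulators 0 of 3 and among the remaining members 2 of 10. IFIT1 differed by -0.04, IRF9 by -0.17 and GBP1 by -0.22.

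The vemurafenib difference can also be read with AT9283 present, as the combination minus AT9283, which shares no array with vemurafenib minus DMSO. IFIT1 rose by 1.70 with AT9283 present, beside 1.31 without it, the 1 of 24 members at the floor to rise, against 0.452% of all genes, and none fell, against 1.97%. By the looser rule IFIT1 was the only member higher and IRF1 the only one lower, against 2.71% and 5.48% of all genes. IRF1 had -0.72 with AT9283 present, beside -0.41 without, and IRF9 had 0.45, beside 0.50. MX1 had 0.32, beside 0.48, and PARP9 had 0.29, beside 0.48. On the second PARP9 probe set these were 0.12 and 0.06. Both differences were positive in 23 of 44 members (52.3%), against 39.7% of all genes. Pearson's r between these differences was 0.75 across the 44 members and 0.745 across all genes, as a description only, since genes of the same arrays are not replicates. EPSTI1, under the floor, stood apart with 0.14 and 0.89.

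**Figure D4:**
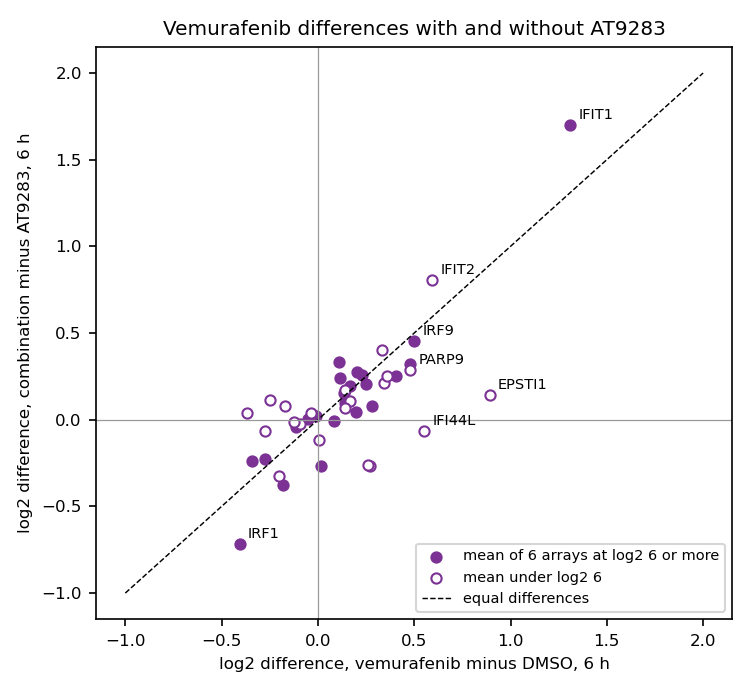
Log2 difference of the combination minus AT9283 (vertical axis) against vemurafenib minus DMSO (horizontal axis), all at 6 h, 1 point for each of 44 members. Filled points have a mean over the 6 arrays at log2 6 or more, the dashed line marks equal differences, and IFIT1 lies far from the other members at 1.31 and 1.70.

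Upstream of these genes, the interferons themselves were near background. The 7 interferon genes measured, among them IFNB1, IFNA1, IFNG and IFNL1, lay between log2 1.58 and 3.79 on all arrays. Of a list of 25 ligands, receptors, kinases and inhibitors of the pathway 23 were measured. With vemurafenib at 16 h IL10RB, a receptor chain shared by lambda interferons and interleukin 10, rose by 1.03, with 8.30 against 7.28 in DMSO. JAK1 differed by 0.58, with 9.24 with vemurafenib against 8.66 in DMSO. SOCS3, a feedback inhibitor of cytokine receptors, fell by 1.01, and IFNGR2, a receptor chain for interferon gamma, was lower by the looser rule, at -0.97. At 6 h SOCS3 fell by 1.81 with vemurafenib and IFNGR2 had -0.92, and in the combination SOCS3 fell by 1.70 and IFNGR2 had -0.67, both against DMSO. Of the 14 genes at the floor at 16 h 2 were higher and 2 were lower by 0.5 or more, beside 16% and 18% of all genes, a share near that of all genes. The type I receptor chains IFNAR1 and IFNAR2, named for their role, differed by -0.11 and 0.05. With AT9283 none of the 13 at the floor was higher or lower by 0.5, against 0.224% and 0.0783% of all genes.

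Of 25 genes of nucleic acid sensing 21 were measured and 15 lay at the floor at 16 h of vemurafenib, where 3 were higher and 4 lower by 0.5, beside 16% and 18% of all genes. TLR3, a sensor of double-stranded RNA, differed by 0.76 and the DNA sensor IFI16 by 0.78. STING1, the adaptor of cytosolic DNA sensing, fell by 1.12 and TLR4 fell by 3.67. At 6 h TLR4 fell by 3.73 with vemurafenib and by 3.72 in the combination.

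A wider list held 61 further interferon-stimulated genes. Of its 54 measured genes 36 lay at the floor at 16 h of vemurafenib, of which 6 were higher and 3 were lower by 0.5, beside 16% and 18% of all genes. The share of higher genes was thus near that of all genes. TAPBP, which loads peptides on MHC class I, differed by 0.88, IFI16 by 0.78 and TRIM14 by -0.74, and PNPT1, a mitochondrial RNA exonuclease, fell by 1.24. The median over the 54 was 0.14. At 6 h of vemurafenib the checkpoint ligand CD274 fell by 1.83 and the median was 0.07. In the combination CD274 fell by 1.38 relative to DMSO. The difference between the lists was not tested, and the members had been named with earlier results of these arrays known.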

How the data were processed

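RNA of A375 cells was measured on 6 Affymetrix arrays, 1 per condition. The deposited values are intensities per probe set on a linear scale. The authors made them with RMA, per the submitters' processing notes. The sources used here state neither its version nor whether all arrays were normalized together. Of 54675 probe sets, 1118 (2.04%) whose values stand in another order in the 6 h columns (r of the DMSO arrays 0.455, against 0.992 elsewhere) and 62 controls were left out. Intensities were turned to log2, and each gene took the probe set with the highest mean among those that name it alone in GEO's platform annotation (41097 name 1 gene, 1801 several, 11777 are unlisted), which gave 19676 genes. Differences were judged by size (at least 1 or 0.5, higher array at log2 6 or more). limma 3.58.1 (R 4.3.3) with Benjamini-Hochberg adjustment was fitted on 4 arrays with time as a block, over 9651 genes, and on 6 arrays with additive terms, over 9707. The size rules and both limma fits were tested on simulated data. These held the same effect at both times, in genes clear of the floor. Effects that change with time, and changes in genes near the floor, were not covered. The number of arrays limits the precision. Values on all arrays are given for the regulators and for members at the floor with a difference of 0.5 in any of 7 comparisons; of other lists, genes over 1 and otherwise the largest are named, up to 4 per list and comparison, and a few for their role. Members and lists were chosen with earlier results of these data known. Alternatives changed the probe set, scaling, floor, order of the misaligned probe sets, control array and prior. STAT2 was not analysed here.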

Additional observations from a re-analysis of the deposited data

Results flagged for a closer look

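GBP1 showed its difference at 16 h in probe sets that the comparisons did not use. Vemurafenib minus DMSO was 1.03 on one of them and 1.17 on another, beside 1.20 on the probe set used. Their levels were 6.30 and 6.83 with vemurafenib, against 5.28 and 5.66 in DMSO. With the mean over all GBP1 probe sets, which include one near background, the difference was 0.85.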

How the results depend on the processing

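No paired analysis was possible because the labels carry no replicate numbers, with 1 array per condition, so the only block fitted is time. For the same reason no replicate could be left out. Over the alternatives run, 268 counts stayed within 1.5 times and 30 did not, 2 medians and 20 named differences moved, and no called value changed sign. For vemurafenib at 16 h, members higher by 1 were 2 with the mean over probe sets, 2 with a floor of log2 7 and 7 with no floor, against 4, members higher by 0.5 were 8 with a floor of 7, against 15, members lower by 0.5 were 2 with arrays centred on their medians, against 1, and the median of members at a floor of 7 was 0.0501, against 0.47 at 6. With genes selected on the 6 h arrays without vemurafenib, members higher by 1 were 0, higher by 0.5 were 7, and the median was 0.0725. With a floor of 5, members higher by 0.5 were 2 for vemurafenib at 6 h, the combination against DMSO and against AT9283, and the DMSO pair. With no floor they were 4, 4, 2 and 6, and AT9283 had 1 higher and 1 lower. With a floor of 7, IFIT1 and IRF1 dropped out, so all of these counts at 6 h were 0, as was the DMSO pair's count of lower members. With misaligned probe sets kept as deposited, the DMSO pair had 1 member lower by 1 and 2 by 0.5. limma called 1 member, IFIT1, after quantile normalization (adjusted p 0.0427; 0.0427 to 0.0763 over the settings of that fit), and 1, again IFIT1, in the additive fit of 6 arrays. The difference of PARP9 at 16 h ran from 0 to 1.06, that of IFIT1 from 1.71 to 1.81 and that of IRF9 from 1.86 to 1.96. The additive fit, the selection on arrays without vemurafenib and the alternative without probe sets of equal value on both 16 h arrays were chosen after seeing the data. Except where fewer genes passed a floor, the cause was not tested.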
